A study of Mus musculus with 2 samples.

Results

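The cytokines that mast cells need for growth act through a small set of surface receptors, and 8 receptor genes were followed here in cultures of mouse mucosal mast cells, at day 20 against day 4: Kit, Il3ra, Csf2rb2, Csf2rb, Il4ra, Il2rg, Il9r and Il1rl1. They were chosen by name as the receptors for stem cell factor (SCF), IL-3, IL-9, IL-4 and IL-33 together with the chains these receptors share. The choice was made with earlier results of these data known, as was that of the gene lists below. A probe for 7 of the 8 genes was found among the 20868 gene probes of the array, which carry 20704 distinct names, by accession or by the symbol in the probe's description. None was matched to Csf2rb, which was not analysed here. Each of the 7 genes had 1 probe, and all 7 probes were well above background and below saturation in all 4 channels.

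RNA was taken from the cultures at day 20 and at day 4 and compared on 2 two-colour Agilent arrays. Day 20 and day 4 cultures alike were kept in IL-3, IL-9, SCF and TGF-β1, the mixture used to obtain mast cells of the mucosal type, and the labels name neither the cells put into culture nor a mouse strain, genotype or age. Each labelled RNA was a pool of 3 samples, the arrays used pools of different origin, and every ratio below is therefore a mean over n = 2 pools. Day 20 was labelled with Cy5 on array 1 and with Cy3 on array 2, so that a dye effect of a probe enters the spread between the arrays and cancels in their mean.

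Kit is a receptor tyrosine kinase that SCF brings together in pairs on the cell surface. The receptors for IL-3, IL-4 and IL-9 belong to the haematopoietic cytokine receptor family, in which a ligand-specific alpha chain joins a second chain. These receptors have no kinase of their own and work through bound JAK kinases and STAT factors. In the mouse the IL-3 receptor alpha chain can pair with the common beta chain Csf2rb, which also serves GM-CSF and IL-5, or with its close relative Csf2rb2, which serves IL-3. The IL-4 and IL-9 receptors share the common gamma chain, encoded by Il2rg. Il1rl1, also called ST2, is the binding chain for IL-33 and pairs with Il1rap to signal through Myd88.

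Of the 7 measured genes, 4 rose over the culture and 0 fell. Kit, Il3ra, Csf2rb2 and Il4ra were higher at day 20, by 2.34-fold to 3.97-fold on average, while Il2rg, Il9r and Il1rl1 did not pass the test. In the fit of all 18471 tested probes with limma, at a Benjamini-Hochberg adjusted p below 0.05, 4 of 7 receptor probes were called higher at day 20 beside 7.82% of all probes, 0 of 7 lower beside 9.13%, and 4 of 7 in either direction beside 17.0%. The median log2 ratio of day 20 over day 4 was 1.23 for the 7 receptor probes and -0.01 for all tested probes. In RNA from whole cultures, more cells of a type and more RNA of a gene per cell cannot be told apart. Levels are given below as normalised intensity, a linear brightness after background correction and dye normalization to which a constant of 50 was added, and they are compared between days for 1 probe at a time, since different probes are not on a common scale. Sums over marker probes, given further on, are likewise set only against the same sum at the other day, and bright probes weigh most in them.

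**Figure D1:**
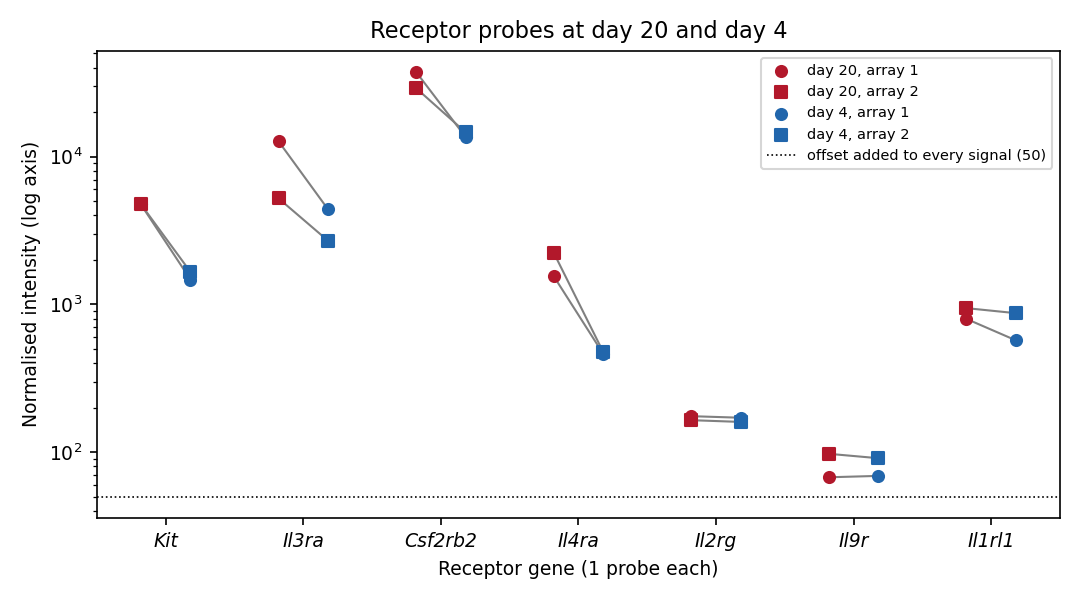
Normalised intensity (log axis) of the 7 receptor probes at day 20 (red, left of each pair) and day 4 (blue, right), with circles for array 1, squares for array 2 and a grey line joining the days of 1 array; the dotted line marks the added constant of 50. Day 20 lies above day 4 on both arrays for Kit, Il3ra, Csf2rb2 and Il4ra, and the Il9r points lie close to the constant.

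The sequences before the starts of the 4 genes that rose are shown so that the windows can be compared. They are the 250 bases upstream of the start in RefSeq's mouse assembly GRCm38.p6, read 5′ to 3′ on the strand of the gene: chr5:75574737-75574986 (plus strand) for Kit, chr14:14346245-14346494 (plus strand) for Il3ra, chr15:78305722-78305971 (minus strand) for Csf2rb2 and chr7:125552021-125552270 (plus strand) for Il4ra. Capitals mark matches to GATAA, the core of sites for GATA factors, and to TTCNNNGAA, the form of sites for STAT factors, searched on both strands.
Kit: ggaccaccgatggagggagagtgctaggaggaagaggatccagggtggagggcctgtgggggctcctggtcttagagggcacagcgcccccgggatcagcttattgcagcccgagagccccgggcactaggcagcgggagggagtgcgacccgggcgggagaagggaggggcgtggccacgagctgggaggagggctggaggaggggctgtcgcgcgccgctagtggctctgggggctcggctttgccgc
Il3ra: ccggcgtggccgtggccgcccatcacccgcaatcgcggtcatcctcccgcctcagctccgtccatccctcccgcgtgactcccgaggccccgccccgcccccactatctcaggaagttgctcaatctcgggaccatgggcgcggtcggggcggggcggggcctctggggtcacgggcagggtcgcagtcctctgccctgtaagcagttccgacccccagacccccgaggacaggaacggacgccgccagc
Csf2rb2: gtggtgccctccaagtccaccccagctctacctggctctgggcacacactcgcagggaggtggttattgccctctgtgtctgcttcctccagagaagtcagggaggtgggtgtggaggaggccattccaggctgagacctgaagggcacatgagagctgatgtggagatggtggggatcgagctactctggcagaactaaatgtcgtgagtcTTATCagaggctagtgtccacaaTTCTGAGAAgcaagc
Il4ra: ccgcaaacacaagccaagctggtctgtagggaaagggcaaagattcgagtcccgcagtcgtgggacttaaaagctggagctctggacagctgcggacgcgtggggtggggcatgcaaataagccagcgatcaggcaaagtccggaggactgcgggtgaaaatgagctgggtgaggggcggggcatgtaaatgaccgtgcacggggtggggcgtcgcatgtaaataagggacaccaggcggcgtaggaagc

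Only the window of Csf2rb2 among these 4 held a match to any motif searched. It had GATAA on the opposite strand, written TTATC, whose first base lies 38 bases before the start, and TTCTGAGAA, a match to TTCNNNGAA that begins 15 bases before the start. Of 32851 upstream windows of this length in the RefSeq table, 22.6% held GATAA and 7.02% held TTCNNNGAA on either strand. The windows of Kit, Il3ra and Il4ra held neither, and none of the 4 windows held the E-box CACGTG, present in 6.02% of all windows, or TTC and GAA set 4 bases apart, present in 5.85%. Among the receptors that did not pass the test, the Il9r window had 3 matches to GATAA, the windows of the 2 Il1rl1 starts had 2 and 1, and that of Il2rg had none. The 2 matches in the Csf2rb2 window did not overlap, and a match describes letters and not binding.

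Kit, the SCF receptor, was 3.04-fold higher at day 20. Its normalised intensity was 4748 on array 1 and 4756 on array 2 at day 20, against 1472 and 1659.6 at day 4. Both day 20 values lay far above both day 4 values, and the 2 day 20 values were nearly equal. The log2 ratio of day 20 over day 4 was 1.60 ± 0.12 (SD, n = 2), with an adjusted p of 1.42e-06 by limma and a 95% confidence interval of 2.56-fold to 3.61-fold. The Kit spot of array 2 was marked as non-uniform in both colours by the scanner software and was kept. The unmarked spot of array 1 gave 3.23-fold and the marked one 2.87-fold. In the authors' deposited table of array 2 the ratio of the marked spot was 2.96-fold, against 3.37-fold for the spot of array 1.

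The alpha chain of the IL-3 receptor rose together with a beta chain. Il3ra, the chain that binds IL-3, had normalised intensities of 12713 and 5223 at day 20, against 4399.6 and 2696 at day 4. The days did not overlap, but the arrays differed at each day, and array 1 was the higher at both. Its log2 ratio was 1.24 ± 0.41, or 2.37-fold, with an adjusted p of 4.89e-05 by limma; array 1 gave 2.89-fold and array 2 1.94-fold. Csf2rb2, the beta chain that serves IL-3, had intensities of 37444 and 29087 at day 20, against 13574 and 14617 at day 4. Its log2 ratio was 1.23 ± 0.33, or 2.34-fold, with an adjusted p of 3.55e-05 by limma, and neither day was saturated on either array. The ratios of Il3ra and Csf2rb2 differed by 0.07 on array 1 and by -0.04 on array 2 on the log2 scale, less than the spread between the arrays for either gene. Csf2rb and Csf2rb2 are close relatives that lie next to each other among the protein-coding genes of GRCm38.p6, and the Csf2rb2 value is uncertain to the extent that its probe also reads Csf2rb, which was not tested.

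Il4ra, the alpha chain that binds IL-4, stood at the top of the receptors. Its normalised intensity was 1553 and 2239 at day 20, against 463 and 476 at day 4. The day 4 values were close to each other, and array 2 had the higher day 20 value. The log2 ratio was 1.99 ± 0.34, or 3.97-fold, with an adjusted p of 8.15e-07 by limma and a 95% confidence interval of 3.26-fold to 4.85-fold. Of all tested probes, 99.8% had a mean ratio at or below that of Il4ra. IL-4 was not among the cytokines listed for the medium.

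The chain with which Il4ra pairs did not pass the test. Il2rg, the common gamma chain, had intensities of 175 and 165 at day 20, against 171 and 160.1 at day 4. The days overlapped, the log2 ratio was 0.04 ± 0.00, and the adjusted p by limma was 0.985. The 95% confidence interval of its ratio ran from 0.868-fold to 1.21-fold, so a change of the size seen for Il4ra or Kit lay outside it. The day 20 colour of the Il2rg spot of array 2 was marked as non-uniform and was kept. With marked spots left out Il2rg had no test.

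Il9r, the chain that binds IL-9, gave a dim signal on both days. Its intensities were 67.6 and 97.4 at day 20, against 69.1 and 91.0 at day 4, including the added constant of 50. The days overlapped, and the ratio was 0.978-fold on array 1 and 1.07-fold on array 2. The log2 ratio was 0.03 ± 0.09, with an adjusted p of 0.991 by limma. The scanner software called the spot well above background in all 4 channels, but the spot was close to the 162 negative control spots. Over local background, the day 20 signal of Il9r was 1.88 times the median of these controls on array 1 and 1.41 times on array 2, against 1.33 and 2.68 times for day 4. The day 4 signal of array 1, at 67.1, lay below the 95th percentile of the controls, 69.4. The 95% confidence interval of 0.864-fold to 1.21-fold holds for values that include the constant. With no added constant the arrays gave log2 ratios of -0.12 and 0.26, and a change in Il9r was not detectable at this signal. The other receptor probes were at least 2.19 times the control median in every channel, the lowest being Il2rg at day 20 on array 2.

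Il1rl1, the IL-33 receptor, was 1.23-fold higher on average and did not pass. Its intensities were 798 and 943 at day 20, against 571 and 872 at day 4. Each array had the higher value at day 20, but the day 20 value of array 1 was lower than the day 4 value of array 2. The log2 ratio was 0.30 ± 0.26, with an unadjusted p of 0.0322 and an adjusted p of 0.144 by limma, and a 95% confidence interval of 1.02-fold to 1.48-fold that is not adjusted for the number of probes. In the authors' deposited table the software's own p for the spot was 0.00118 on array 1 and 0.463 on array 2. Il1rl1 gives rise to a membrane form and a soluble form, and the files do not tell which of them the probe reads.

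**Figure D2:**
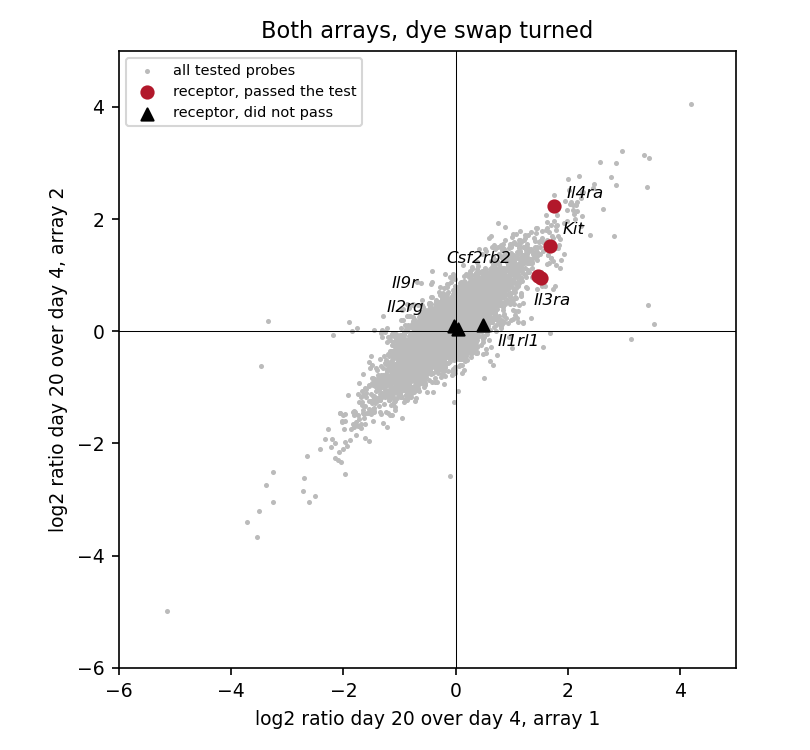
Log2 ratio of day 20 over day 4 on array 1 (x axis) and array 2 (y axis) for all 18471 tested probes (grey), the 4 receptor probes that passed the test (red circles) and the 3 that did not (black triangles). Kit, Il3ra, Csf2rb2 and Il4ra lie in the upper right with ratios between 0.95 and 2.23, and Il2rg and Il9r lie next to the origin.

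Ordered by their mean log2 ratio, the receptors ran from Il4ra through Kit, Il3ra, Csf2rb2, Il1rl1 and Il2rg to Il9r. One gap in this order was much larger than its spread: Csf2rb2 exceeded Il1rl1 by 0.98 on array 1 and by 0.88 on array 2. Il4ra exceeded Kit by 0.06 and 0.72, Kit exceeded Il3ra by 0.16 and 0.56, and Il1rl1 exceeded Il2rg by 0.45 and 0.07, so the size of these steps differed between the arrays. Array 1 gave the larger ratio for Kit, Il3ra and Csf2rb2 and array 2 for Il4ra; with each array holding its own pools and its own dye orientation, pool and dye cannot be told apart in these differences. The probes nearest to a receptor in their pair of ratios were found by Euclidean distance over the 2 arrays among 8430 probes with a plain symbol. Nearest to Kit were Mcpt1, a chymase of mucosal mast cells, at a distance of 0.04, and Sytl2, a synaptotagmin-like protein of vesicle traffic, also at 0.04. Mcpt1 was saturated at day 20 on 1 array. Nearest to Il4ra were Mcpt2, another mucosal mast cell chymase, at 0.20 and Rsrp1 at 0.23. Il3ra and Csf2rb2 shared both neighbours: Met, a receptor tyrosine kinase, and Olfr606, named as an olfactory receptor. With 2 values per probe such nearness is a description of size alone.

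The receptors' partner chains showed other patterns. Csf2ra, the GM-CSF receptor alpha chain, fell while Csf2rb2 rose. It had intensities of 378 and 311 at day 20, against 772 and 675 at day 4, a log2 ratio of -1.08 ± 0.06. The days were well apart on both arrays. Il5ra, the alpha chain for IL-5, and Il1rap, the partner of Il1rl1, were each well above background in only 1 of the 2 channels of each day and were not tested. Their intensities reached at most 66.7 and 60.5 on any channel, including the constant of 50. For Il13ra1, which can replace the gamma chain beside Il4ra, the log2 ratio of -0.05 ± 0.18 missed the threshold. Its intensities were also close to the constant, at 62.1 and 63.4 at day 20, against 70.4 and 60.2 at day 4. It was well above background at day 4 on only 1 array, so a change could have been missed. Among alpha and beta chains that use Il2rg, Il21r was at -0.07 ± 0.06 and Il2rb at -0.13 ± 0.03, and neither passed. Il7r, the IL-7 receptor alpha chain, was at -0.35 ± 0.18 and did not pass, but with no added constant it passed at -1.08 and with the scanner software's ratios at -1.43.

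In a wider list of 39 other cytokine receptors, 34 were tested, of which 5 rose, 5 fell and 24 did not pass, with a median log2 ratio of -0.05. Over all tested probes 7.82% rose and 9.13% fell. Il10ra, the alpha chain for IL-10, rose by 1.48 ± 0.33 on the log2 scale, with intensities of 638 and 870.2 at day 20, against 269 and 266 at day 4. Crlf2, the receptor chain for TSLP, rose by 0.85 ± 0.03, with 4674 and 4702 at day 20, against 2548 and 2647 at day 4. Besides Csf2ra, Il11ra1, the alpha chain for IL-11, fell, with a log2 ratio of -0.98 ± 0.25. Csf1r and Epor, which also fell, stand on the marker lists of macrophages and red cell precursors as well. Only 3 of this list were called higher where median centring or the software's own ratios were used.

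Among 13 genes for ligands of the 8 receptors or of their partner chains, 12 had a probe and 7 were tested. Of these 7, 1 rose and 0 fell, beside 7.82% higher and 9.13% lower over all tested probes. So few probes cannot set the list apart from the array as a whole. Il15, a ligand that uses the common gamma chain, rose by 1.80 ± 0.02 on the log2 scale, or 3.48-fold, with intensities of 358 and 412 at day 20, against 104 and 117 at day 4. Array 1 gave 3.44-fold and array 2 3.51-fold, and with no added constant the log2 ratio was 2.50. Of the cytokines supplied in the medium, IL-3, IL-9 and SCF had probes close to the added constant. Il3 had intensities between 69.5 and 73.7 and Il9 between 62.9 and 67.8 over all 4 channels. Kitl, which encodes SCF, was not well above background in any channel. The gene for TGF-β1 was not on this list.

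Of 20 tested genes for signal relay below the receptors 5 rose and 1 fell, with a median log2 ratio of 0.17, beside 7.82% higher, 9.13% lower and a median of -0.01 over all tested probes. Stat5a, a transcription factor that the IL-3 and IL-9 receptors activate, rose by 0.89 ± 0.20, and Jak2, the kinase bound to the beta chains, by 0.74 ± 0.16. Rras, a small GTPase, rose by 0.61 ± 0.03, a call that was lost on the software's own ratios (adjusted p = 0.0882 by limma). Of 14 tested negative regulators 5 rose and 1 fell, with a median of 0.17, beside the same shares over all probes. Socs3, a feedback inhibitor of cytokine receptors, had intensities of 1733 and 1785 at day 20, against 501 and 487 at day 4, and rose by 1.83 ± 0.06. Inpp5d, the inositol phosphatase SHIP1 that restrains Kit and Fc receptor signals, rose by 1.56 ± 0.08, and Ptprc, the phosphatase CD45, by 0.92 ± 0.20. Dok2, an adaptor that dampens tyrosine kinase signals, fell, with a log2 ratio of -1.06 ± 0.07. Cish, a SOCS family member, was at -0.28 ± 0.30 and did not pass, and Socs2 at -0.27 ± 0.76 did not pass either. With no added constant, median centring or the software's own ratios, 2 or 3 relay genes and 3 negative regulators were called higher.

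**Figure D3:**
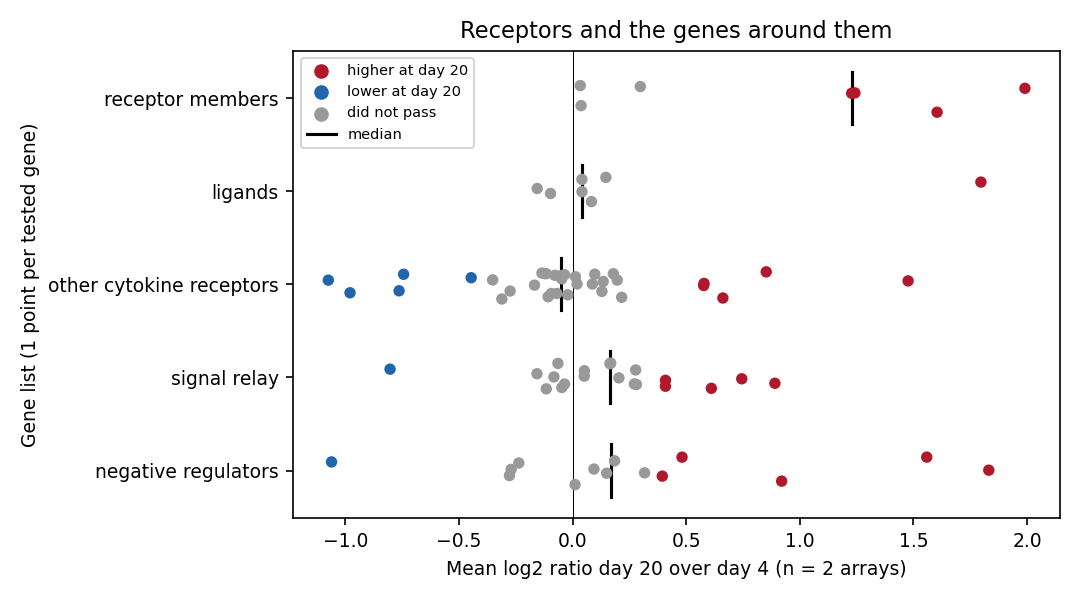
Mean log2 ratio of day 20 over day 4 (x axis, n = 2 arrays) for each tested gene of the receptor set and of 4 lists around it, in red where higher at day 20, in blue where lower and in grey where the test was not passed; black bars mark the medians. The receptor set has its median at 1.23, while the medians of the 4 lists lie between -0.05 and 0.17.

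Markers of mast cells rose beside the receptors, and those of several other blood cells fell. The counts below stand beside 7.82% higher and 9.13% lower over all tested probes. Of 13 mast cell markers 11 rose and 1 fell, with a summed normalised intensity of 408269 and 406398 at day 20, against 92753 and 115689 at day 4, and 4 of the probes were saturated at day 20 on at least 1 array, so the day 20 sums are lower bounds. Fcer1a, the IgE-binding chain, rose by 2.11 ± 0.01, and the one marker that fell was Hdc, which makes histamine, at -1.28 ± 0.14. Cma1, a chymase, and Tpsab1, a tryptase, reached saturation at day 20 on each array, and their ratios have only a lower bound. Cma1 was at least 10.6-fold higher on array 1 and at least 5.95-fold on array 2 (adjusted p = 1.69e-07 by limma). Tpsab1 was at least 7.07-fold and 3.24-fold higher on these arrays (adjusted p = 7.85e-06 by limma). These bounds hold for the processing used here. With median centring the mean log2 ratio was 2.64 for Cma1, against 2.99 as reported, and 1.88 for Tpsab1, against 2.26. Neutrophil and granulocyte precursor markers fell in 8 of 10 tested, with S100a9 at -5.06 ± 0.11, Mpo at -3.15 ± 0.15 and S100a8 at -3.06 ± 0.46. Their sum was 9228 and 10765 at day 20, against 17307 and 17055 at day 4, and includes the bright probe of Ctsg, which had 8272 and 9567 at day 20, against 8749 and 8310.3 at day 4, and did not pass. The day 20 signal of S100a8, 62.0 and 85.5, was close to the added constant, and its log2 ratio was -4.60 without that constant. Macrophage markers fell in 7 of 8, with sums of 1255 and 1324 at day 20, against 6340.3 and 7007 at day 4, and with Ctss at -3.60 ± 0.08, Lyz2 at -2.88 ± 0.53 and Apoe at -2.19 ± 0.21. Erythroid markers fell in 6 of 7, with sums of 984 and 1016 at day 20, against 1970.3 and 2152 at day 4, and with Hemgn at -1.99 ± 0.08, Klf1 at -1.32 ± 0.11 and Car1 at -1.20 ± 0.14. These values also depend on the constant: without it the log2 ratio was -4.43 for Hemgn, -2.17 for Klf1 and -4.25 for Car1. Of 6 tested eosinophil and basophil markers 3 fell and Cd200r3 rose, with sums of 4965 and 4906 at day 20 over the 7 with a probe, against 24979 and 28789.9 at day 4. The Cd200r3 call rests on a marked spot that was kept, and with marked spots left out Cd200r3 had no test. Mcpt8, a basophil protease, was at -2.78 ± 0.10. Its bright probe had 3614 and 3824 at day 20, against 23660 and 27702 at day 4. Nearly all of the fall in the eosinophil and basophil sums lies in this probe. T and NK cell markers had 1 of 10 lower, close to the share over all probes. Their sums were 1702 and 1447 at day 20, against 1659.8 and 1599.9 at day 4. B cell markers had 2 of 8 lower and 1 higher, too few to set apart from the shares over all probes. Their sums were 1140.4 and 1615 at day 20, against 1080.2 and 1291 at day 4. The T and NK cell marker was Gzma, at -0.98 on array 1 and -0.26 on array 2, and its call was lost with median centring (adjusted p = 0.191 by limma). Median centring also left 0 B cell markers lower, 1 eosinophil and basophil marker lower and 4 macrophage markers lower. Of the tested markers only Camp, a neutrophil granule peptide, was not well above background at day 20 on either array. The part of these marker shifts in the receptors' ratios was not tested.

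**Figure D4:**
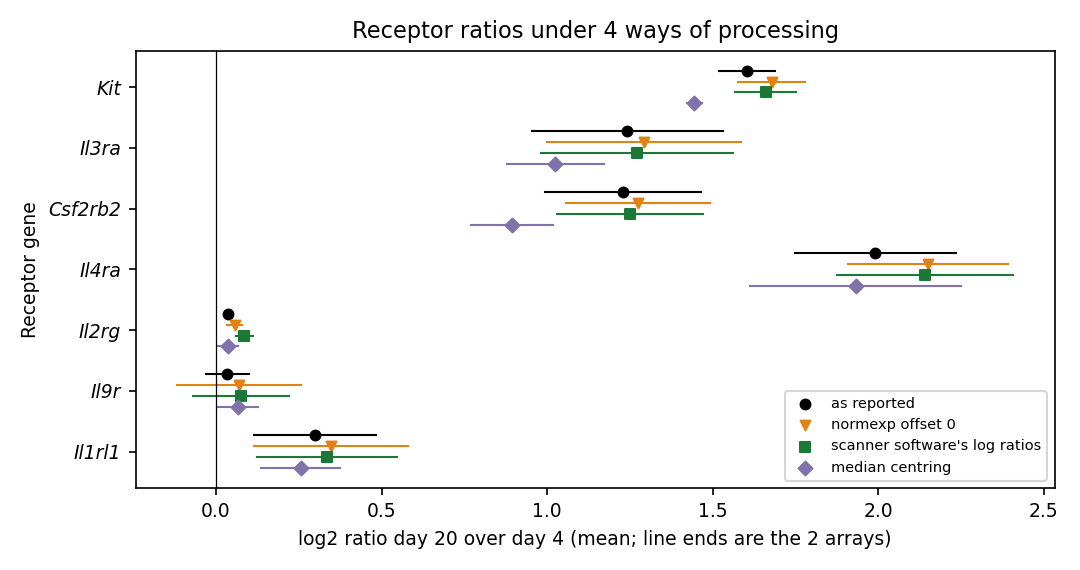
Log2 ratio of day 20 over day 4 (x axis) for the 7 receptor probes as reported, with no added constant, with the scanner software's ratios and with median centring, where symbols mark the mean and line ends mark the 2 arrays. Kit, Il3ra, Csf2rb2 and Il4ra stay at mean ratios of 0.89 or more under all 4, and the line of Il9r crosses 0 in all but median centring.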

How the data were processed

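The authors used Agilent Feature Extraction, in version 7.5 according to the submitters' processing notes, to read the spots of both scanned arrays. Per the file headers, the deposited intensity values include each spot's mean signal and local background, with no normalization, and processed signals that the software had background-subtracted and dye-normalized. The deposited log10 ratios are Cy5 over Cy3 of these processed signals, and the deposited p-values come from the software's error model for single spots. The deposited series matrix holds the same log10 ratios (22393 of 22393 rows equal on both arrays within 1e-06, medians 0.000760 and 0), as Cy5 over Cy3 on either array. A spreadsheet had turned 313 Cy3 and 324 Cy5 background medians of array 1 into month names, and they were read back.

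R (4.3.3) was used with data.table (version 1.17.8) and limma (3.58.1). The background was removed by normexp (offset 50) and each array was normalized by loess. Control spots and outlier-marked spots had no weight in loess, but the values of the 29 marked gene spots of array 1 and 273 of array 2 were kept, which keeps Kit among the tested probes. Channel levels were also scaled between arrays (Aquantile). Array 2 was turned so that ratios are day 20 over day 4. Of 20868 gene probes, 18471 were tested: those that both arrays showed well above background at day 20, at day 4 or at both. Spots above it were 93.1% and 90.5% of gene spots for day 20 on arrays 1 and 2, against 96.2% and 80.0% for day 4. Ratios were tested against 0 (two-sided) by lmFit and eBayes of limma. Each probe had 1 residual degree of freedom and the prior 11.0 (SD 0.164), so most of a probe's variance estimate comes from the prior. The number of arrays limits the precision, and p-values rest on 2 pools per day. Probes were named by accession through RefSeq's gene table for GRCm38.p6 in 8947 cases, by a current symbol in the description in 382, by an older one in 370, by one that RefSeq's table lacks in 241, and otherwise by accession alone (10928); Il4ra was named by its description and the other 6 receptors by accession. For genes with several probes the brightest tested one was used. The receptors and gene lists were chosen with earlier results of these data known. Named list genes are the up to 4 past the threshold with the largest ratio (up to 3 for markers), the receptors' partner chains and the 2 probes nearest to each receptor that passed. Ctsg, Camp, Hdc, Cish, Socs2, Csf1r, Epor, Il3, Il9 and Kitl were named after their values were seen. Values of some list genes are not reported here. The fit was also run on simulated data with independent normal errors drawn from its own variance estimates. These hold no dye or pool effect, so the run cannot check the p-values against either.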

Additional observations from a re-analysis of the deposited data

How the results depend on the processing

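Kit, Il3ra, Csf2rb2 and Il4ra kept their direction and passed the test under all alternatives in which they could be tested: normexp offset 0, the scanner software's log ratios, median centring, no filter, a filter on all 4 channels, 1 probe per gene name, an intensity trend with a robust prior and, added after seeing the data, a background raised by the negative controls. Their mean log2 ratios ran from 1.44 to 1.68 for Kit (highest adjusted p by limma 0.0105), 1.03 to 1.29 for Il3ra (0.0242), 0.89 to 1.27 for Csf2rb2 (0.0231) and 1.93 to 2.15 for Il4ra (0.0139). With marked spots left out, Kit and Il2rg had no test and 3 receptors were called higher. Il2rg, Il9r and Il1rl1 passed under none of the alternatives, with adjusted p of at least 0.906, 0.904 and 0.125. A single array gave 1.52 to 1.69 for Kit, 0.95 to 1.53 for Il3ra, 0.99 to 1.46 for Csf2rb2, 1.75 to 2.23 for Il4ra, 0.11 to 0.48 for Il1rl1 -0.03 to 0.10 for Il9r and 0.035 to 0.040 for Il2rg, with no test. Over all probes, 1444 were higher and 1687 lower as reported, against 627 and 641 with the software's ratios and 545 and 755 with median centring. The median of the ligand list, 0.04 as reported, was 0.14 with normexp offset 0, 0.38 with the software's ratios, -0.028 with the filter on all 4 channels, and 0.042 to 0.056 on single arrays. That of the other receptors was -0.10 with offset 0 and -0.067 to 0.0052 on single arrays, and that of the negative regulators 0.33 with offset 0 and 0.32 with the software's ratios. With median centring 4 macrophage markers, 1 eosinophil or basophil marker, 0 T and NK cell markers and 0 B cell markers were lower, against 7, 3, 1 and 2 as reported. Il7r passed with offset 0 (-1.08), the software's ratios (-1.43) and the trend (-0.35), and Rras did not pass with the software's ratios. Genes with dim day 20 signals had larger ratios with offset 0, such as -4.43 for Hemgn. T and NK cell markers had 2 lower with offset 0, with the software's ratios and with the trend. With marked spots left out no basophil marker was higher, and with the software's ratios no B cell marker was. The cause of these differences was not tested, apart from the genes that a setting leaves out. The test of the ratios against 0 is itself paired, because each ratio compares the 2 days within an array. Dim probes such as Il9r are limited by their signal over background.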
